A study of Mus musculus with 9 samples.

Results

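The MHC class II presentation genes comprised 10 genes, taken as the rows of the count table whose NCBI Gene ID maps to H2-Aa, H2-Ab1, H2-Eb1, H2-DMa, H2-DMb1, H2-DMb2, H2-Oa, H2-Ob, Cd74 and Ciita. They are 10 of the 27179 gene identifiers in the table and 10 of the 13129 genes with enough counts to test, so no member was lost to the filter on low counts. The data came from RNA immunoprecipitation sequencing (RIP-seq), in which RNA is recovered together with a protein and then sequenced. Splenic B cells of wild-type mice, purified as CD43- cells, had been activated for 72 h with CD40L (5 ug/mL), anti-IgM antibody (10 ug/mL) and IL-4 (20 ng/mL), and this treatment was shared by every library. In all, 3 kinds of RNA were set against each other, namely the RNA of the whole lysate (input), the RNA that came down with normal rabbit IgG, and the RNA that came down with an antibody to the phosphorylated form of UPF1 (p-UPF1), with 3 libraries each. The question was which RNAs p-UPF1 holds beyond the background of the beads and beyond their abundance in the cell. Nothing in the labels ties a library to an animal or a culture, so the P values measure the spread between libraries, which may be technical.

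MHC class II molecules are pairs of an alpha and a beta chain that present peptides from the endosomal pathway to CD4+ T cells, and B cells use them to obtain T cell help. H2-Aa and H2-Ab1 encode the chains of I-A and H2-Eb1 the beta chain of I-E. The invariant chain, encoded by Cd74, guides new class II molecules to endosomes and fills their groove until proteases trim it. H2-DM (H2-DMa with H2-DMb1 or H2-DMb2) then exchanges the remaining fragment for peptide, and H2-DO (H2-Oa with H2-Ob) restrains H2-DM in B cells. CIITA, the product of Ciita, is the transactivator that switches these genes on without binding DNA itself, by docking on RFX, CREB and NF-Y at a shared promoter module. UPF1 is the central helicase of nonsense-mediated mRNA decay (NMD). Once phosphorylated, it recruits decay factors to the RNA.

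The shared module is shown because CIITA acts through it on class II genes. It holds an X box, bound by RFX, and a Y box, bound by NF-Y. RefSeq promoter windows on GRCm38, reaching from 250 bases before to 50 bases after a transcription start, were given for 7 of the 10 members (not for H2-Ab1, Cd74 and Ciita). They were searched on both strands for GCAAC, the core of the X box, followed after 20 to 45 bases by ATTGG, the core of the Y box. The pair was found for 4 of the 7 members and in 1.16% of all 32851 windows. The stretches below are written 5′ to 3′ on the strand of the gene, with the X and Y cores in capitals, and H2-Eb2, a class II beta gene outside the members, is added for comparison.
H2-Oa: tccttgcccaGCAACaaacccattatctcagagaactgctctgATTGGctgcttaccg
H2-Ob: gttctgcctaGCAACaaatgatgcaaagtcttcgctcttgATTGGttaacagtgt
H2-Aa: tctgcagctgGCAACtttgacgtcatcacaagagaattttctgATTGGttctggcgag
H2-Eb1: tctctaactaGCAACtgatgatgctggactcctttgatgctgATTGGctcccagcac
H2-Eb2: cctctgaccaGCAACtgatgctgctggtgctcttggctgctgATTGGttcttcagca
These stretches lie at chr17:34092293-34092350 for H2-Oa (plus strand), chr17:34238808-34238862 for H2-Ob (plus), chr17:34287857-34287914 for H2-Aa (minus), chr17:34305766-34305822 for H2-Eb1 (plus) and chr17:34325533-34325589 for H2-Eb2 (plus). The cores were 28 bases apart in H2-Oa and H2-Aa, 27 in H2-Eb1 and H2-Eb2, and 25 in H2-Ob. The full Y box CTGATTGG, which contains the Y core, stood in the windows of H2-Oa, H2-Aa and H2-Eb1, and in 4.1% of all windows. The windows of H2-DMa, H2-DMb1 and H2-DMb2 did not hold the pair, which says only that these letters are not in these windows. On the TMM scale explained below, H2-Oa, H2-Aa and H2-Eb1 were lower and H2-Ob and H2-Eb2 higher with p-UPF1 than with IgG, while with mitochondrial scaling the 4 members were all higher.

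The libraries held 17372510 to 24945286 counts, and replicates correlated at r = 0.982 to 0.997 across genes on the log2 scale of CPM, the read count scaled to a common depth, lowest among the IgG libraries. All 6 B cell markers were found in every library. Their summed level was 3200 to 3223 CPM in input, 2494 to 2584 CPM with IgG and 2398 to 2471 CPM with p-UPF1. Single B cell markers differed more, from Cd79a with means of 269 CPM in input and 32.8 CPM with p-UPF1 to Pax5 with 58.0 and 182 CPM. All 5 T cell markers, 4 of 5 macrophage and monocyte markers (Csf1r, Itgam, Lyz2 and Cd14) and 3 of 6 dendritic cell markers (Clec9a, Xcr1 and Siglech) stayed under 1 CPM in each library. Adgre1, a macrophage marker, was present at 127 to 138 CPM in input and 56.5 to 58.6 CPM with p-UPF1, and Zbtb46, a dendritic cell marker, at 35.9 to 37.1 CPM in input and 175 to 177 CPM with p-UPF1. The other dendritic cell markers, Itgax and Flt3, were low, with means of 2.72 and 1.72 CPM in input and 2.53 and 0.947 CPM with p-UPF1. Dendritic cells and macrophages also express class II genes, and the part of such cells in the class II results was not tested. Within input, a marker's level does not tell the number of cells of a type from the RNA per cell.

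CPM values were scaled by TMM factors, which take the typical gene as unchanged. Fold changes are therefore relative to the other RNAs and not amounts per cell. The choice matters here, because mitochondrially encoded mRNAs took 2.47% to 2.53% of the counts in input, 2.05% to 2.24% with IgG and 0.0706% to 0.0778% with p-UPF1. When libraries were scaled to equal counts of these mRNAs, the median log2 fold change of all genes over input rose from -0.03 to 5.00, and all 10 members were then higher in p-UPF1 than in either control. Measured from the median of all genes, each member's log2 fold change was the same within 0.01 under the 6 scalings tried. All directions given below are thus those of the TMM scale, that is, against the median gene.

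The class II set was split in the p-UPF1 precipitate, with the transactivator far above the controls and the I-A chains and Cd74 far below them on the TMM scale, though all 10 members were higher with mitochondrial scaling. Relative to IgG, 3 members were higher and 7 lower, beside 40.4% and 42.2% of all genes tested (edgeR's quasi-likelihood test, adjusted P under 0.05). Relative to input, 2 members were higher and 8 lower, beside 40.8% and 42.6% of all genes. These comparisons share the 3 p-UPF1 libraries. With mitochondrial scaling in place of TMM, 10 were higher and 0 lower in either comparison, but 12719 of the 13129 genes tested then also met the bound criterion given below, so this count is not particular to the members. The median log2 fold change over the 10 members was -1.22 over IgG and -1.84 over input, beside -0.03 in each over all genes tested.

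**Figure D1:**
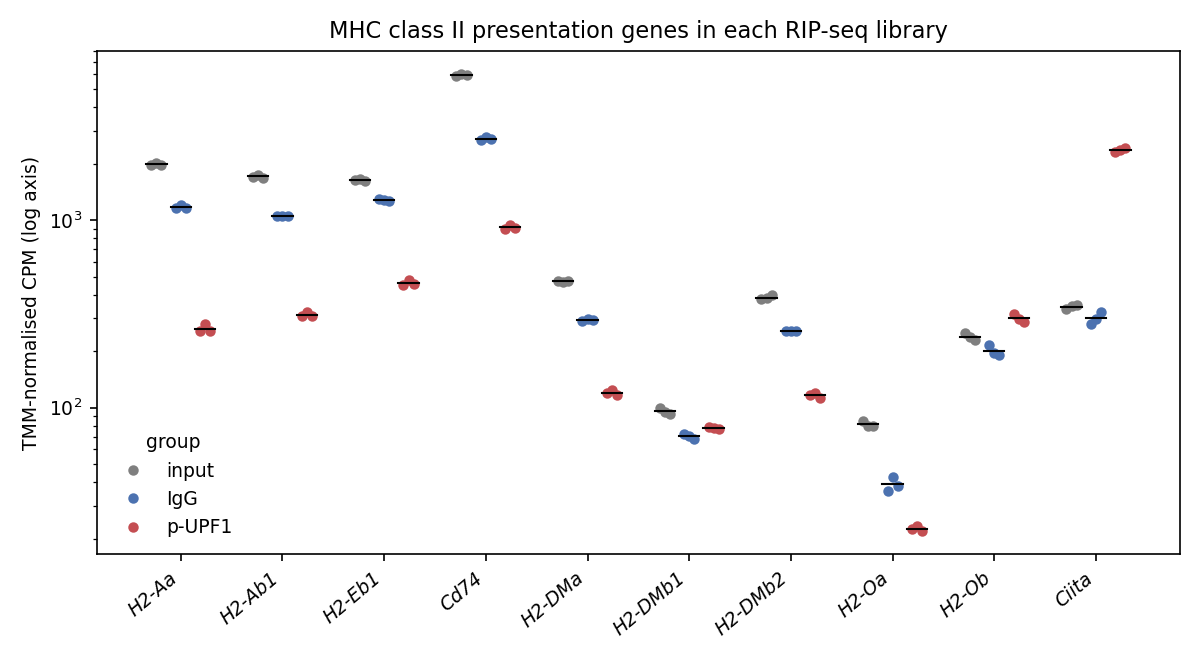
TMM-normalised CPM (log axis) of the 10 MHC class II presentation genes in each of the 9 libraries. Points are libraries and bars are means of 3. The p-UPF1 points lie below all others for 7 genes and above all others for H2-Ob and Ciita (TMM scale; with mitochondrial scaling all 10 genes are higher with p-UPF1).

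Bound RNAs were those whose log2 fold change reached 1 relative to IgG and 2 relative to input, each with an adjusted P under 0.05, which are the limits in the study's methods. Ciita was the only bound member, 1 of 10, beside 6.25% of all genes tested. With the signs turned, 3 members were depleted (H2-Aa, H2-Ab1 and Cd74), beside 9.41% of all genes. H2-DMa lay just outside, with a log2 fold change over input of -1.98. Every p-UPF1 library was below every IgG and input library for 7 members, beside 37.6% of all genes, and above all of them for H2-Ob and Ciita, 2 members, beside 37% of all genes. In the same 7 members the IgG libraries also lay between, below every input library and above every p-UPF1 library, an order found in 20.8% of all genes.

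**Figure D2:**
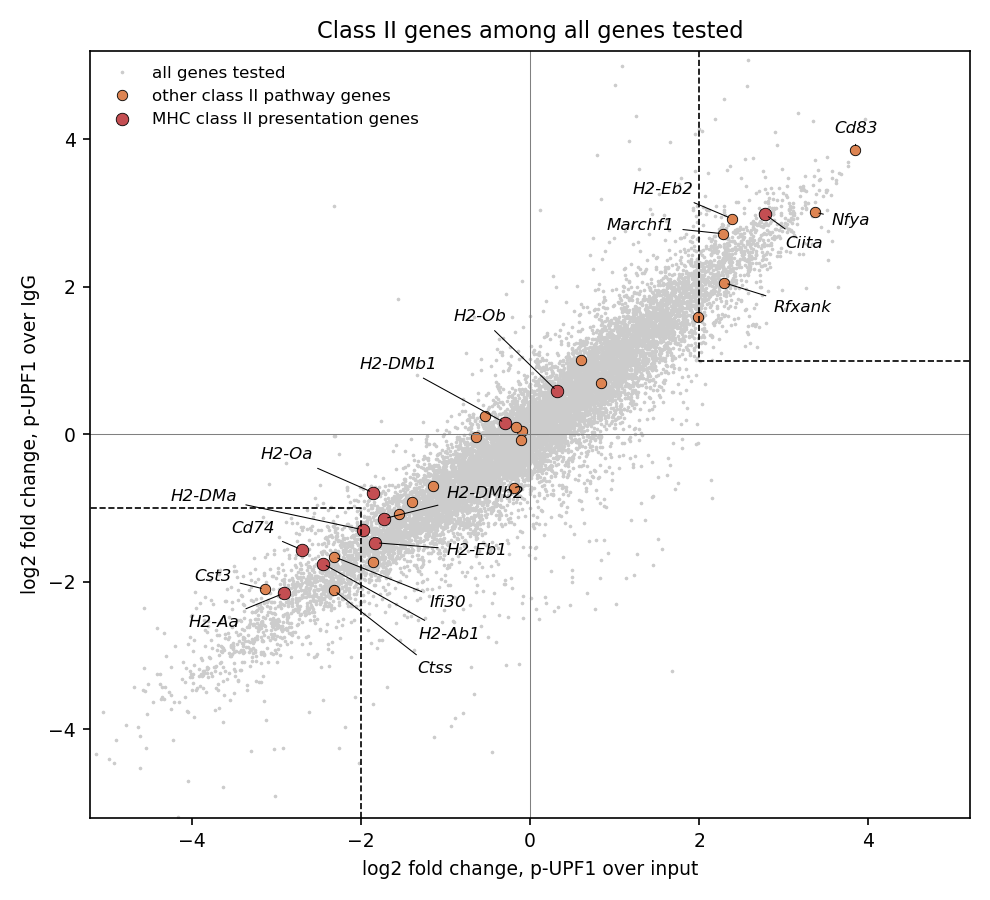
Log2 fold change of p-UPF1 over input (x axis) and over IgG (y axis) for all genes tested (grey, 22 genes lie outside the axes), the 10 MHC class II presentation genes (red) and the other class II pathway genes (orange). Dashed corners mark the bound (upper right) and depleted (lower left) criteria. Ciita lies in the upper corner, H2-Aa, H2-Ab1 and Cd74 in the lower, on the TMM scale (with mitochondrial scaling all 10 lie above 0 on each axis); both axes share the p-UPF1 libraries.

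The RNAs of the I-A chains and of the I-E beta chain were abundant in the lysate and were lower in the p-UPF1 precipitate on the TMM scale. H2-Aa (chr17:34282744-34287823, minus strand) had 1967, 2010 and 1978 CPM in input, 1158, 1210 and 1159 CPM with IgG and 256, 280 and 257 CPM with p-UPF1. Its groups did not overlap, and its log2 fold change was -2.15 ± 0.042 (SE) over IgG (adjusted P = 6.38e-17) and -2.91 ± 0.043 over input (adjusted P = 2.63e-18), the lowest value over input among the members. Only 3.45% of the genes tested had a lower one. H2-Ab1 (chr17:34263227-34269418, plus strand), its partner chain, had 1711, 1736 and 1690 CPM in input, 1056, 1052 and 1050 CPM with IgG and 307, 322 and 308 CPM with p-UPF1. The same order held, with -1.75 ± 0.035 over IgG and -2.45 ± 0.036 over input (adjusted P = 9.51e-17 and 2.63e-18). H2-Eb1 (chr17:34305867-34316674, plus strand) had 1644, 1663 and 1617 CPM in input, 1296, 1286 and 1261 CPM with IgG and 449, 482 and 456 CPM with p-UPF1. This beta chain of I-E changed least of the 3, by -1.47 ± 0.037 over IgG and -1.83 ± 0.037 over input (adjusted P = 1.23e-15 and 8.09e-17), and did not reach the depleted criterion.

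The pair of I-A chains did not come down in equal measure. The ratio of H2-Aa to H2-Ab1 counts within a library, which does not depend on the scaling, was 1.16 ± 0.011 in input, 1.12 ± 0.029 with IgG and 0.845 ± 0.021 with p-UPF1 (SD, n = 3). The p-UPF1 libraries lay between 0.833 and 0.868 and the other 6 between 1.10 and 1.17, without overlap.

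Cd74 (chr18:60803849-60812652, plus strand) was the member with the highest level per length in every group, and in input and with IgG also the one with the most counts. Its level was 5901, 6060 and 5970 CPM in input, 2673, 2766 and 2727 CPM with IgG and 900, 946 and 914 CPM with p-UPF1. The groups were far apart compared with their spread, and the log2 fold change was -1.57 ± 0.034 over IgG (adjusted P = 1.91e-16) and -2.70 ± 0.035 over input (adjusted P = 7.27e-19). Cd74 also had the largest drop of the members from input to IgG, with a log2 fold change of -1.13 ± 0.033 (adjusted P = 8.75e-13). Its ratio to H2-Aa was 3.01 ± 0.0095 in input, 2.32 ± 0.034 with IgG and 3.49 ± 0.095 with p-UPF1. The ratio was thus lower with IgG than in input and highest with p-UPF1.

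Per kilobase of exon, the order of the members in input was Cd74 (4224 ± 56.1 RPKM), H2-Aa (1760 ± 19.8), H2-Ab1 (1435 ± 19.5), H2-Eb1 (983 ± 13.8), H2-DMb2 (213 ± 5.52), H2-Ob (83.3 ± 3.28), H2-Oa (77.6 ± 2.71), H2-DMb1 (74.4 ± 3.03), H2-DMa (56.9 ± 0.633) and Ciita (35.4 ± 1.08), where RPKM is TMM-normalised CPM per kilobase of all annotated exons (SD, n = 3). H2-Ob and H2-Oa, and H2-Oa and H2-DMb1, overlapped between libraries. The annotated exons of H2-DMa and Ciita sum to far more than their main transcript (8325 against 1658 bases and 9799 against 4237 bases). With the length of the transcript that has the longest coding sequence, H2-DMa stood at 286 RPKM and Ciita at 81.8 RPKM in input. Among the p-UPF1 libraries Ciita stood in rank 4 by exon sum, at 242 ± 6.24 RPKM, overlapping with H2-Aa at 234 ± 12.2 RPKM, and in rank 2 by transcript length, at 560 ± 14.4 RPKM. Cd74 stayed first at 650 ± 16.7 RPKM, followed by H2-Eb1 (277 ± 10.3) and H2-Ab1 (262 ± 7.16), which overlapped.

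H2-DM is encoded by H2-DMa (chr17:34119693-34139101), H2-DMb2 (chr17:34143229-34151553) and H2-DMb1 (chr17:34153191-34160229), all on the plus strand. The alpha chain gene H2-DMa had 476, 467 and 477 CPM in input, 291, 297 and 295 CPM with IgG and 120, 124 and 116 CPM with p-UPF1. Its log2 fold change was -1.29 ± 0.038 over IgG (adjusted P = 9.2e-15) and -1.98 ± 0.038 over input (adjusted P = 4.56e-17). H2-DMb2, the more abundant beta chain gene, followed it with 379, 383 and 398 CPM in input, 257, 257 and 257 CPM with IgG and 116, 120 and 113 CPM with p-UPF1. The change was -1.15 ± 0.040 over IgG and -1.73 ± 0.040 over input (adjusted P = 6.76e-14 and 3.11e-16). H2-DMb1 differed from its neighbour. It had 99.7, 94.9 and 92.0 CPM in input, 72.5, 70.7 and 67.8 CPM with IgG and 79.0, 77.9 and 77.4 CPM with p-UPF1, so that p-UPF1 lay between the controls.

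For H2-DMb1 the log2 fold change was 0.15 ± 0.047 over IgG (adjusted P = 0.00758) and -0.29 ± 0.046 over input (adjusted P = 2.02e-05). The first value is small and rested on the scaling. It was 0.01 with upper-quartile factors (adjusted P = 0.781), 0.07 with an input library as the TMM reference (adjusted P = 0.206) and -0.01 with library size alone (adjusted P = 0.848). The ratio of H2-DMb1 to H2-DMb2 counts within a library, which is free of scaling, was 0.263, 0.248 and 0.231 in input, 0.282, 0.275 and 0.264 with IgG and 0.680, 0.651 and 0.685 with p-UPF1. It was 2.46 times as high in p-UPF1 as with IgG and 2.71 times as high as in input, comparing means. Each p-UPF1 library exceeded each control library.

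H2-DMb1 and H2-DMb2 are near-identical copies, which bears on how far their counts can be separated. Their coding sequences of 786 bases each were 95.9% identical, with 32 differing bases and a longest identical run of 221 bases. Of all 50-base windows along the exons of H2-DMb1, 32.3% occurred without a mismatch in H2-DMb2, and 26.2% of the 75-base windows did. How reads that fit both genes were treated is not given in the sources used here. The stretches of coding exon 2 where the copies differ most are shown because reads there can be told apart, with the 23 differing bases in capitals.
H2-DMb1: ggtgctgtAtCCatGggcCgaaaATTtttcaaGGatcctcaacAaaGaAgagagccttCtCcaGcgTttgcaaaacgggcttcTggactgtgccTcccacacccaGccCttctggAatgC
H2-DMb2: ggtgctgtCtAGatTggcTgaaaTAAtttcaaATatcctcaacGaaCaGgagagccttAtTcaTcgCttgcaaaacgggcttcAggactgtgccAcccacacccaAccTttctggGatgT
They lie at chr17:34155578-34155697 and chr17:34147796-34147915 (GRCm38, plus strand, 120 bases each). In coding exon 3, by contrast, 120 bases at chr17:34157299-34157418 in H2-DMb1 and chr17:34148604-34148723 in H2-DMb2 were identical, as follows.
H2-DMb1 and H2-DMb2: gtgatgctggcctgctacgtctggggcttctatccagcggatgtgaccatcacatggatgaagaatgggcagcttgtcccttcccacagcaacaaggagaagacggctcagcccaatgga
With the counts of both copies summed to 1 gene, the log2 fold change over IgG was -0.75 ± 0.036 (adjusted P = 5.57e-12), a sum to which H2-DMb2 gave most of the counts and which therefore says little of H2-DMb1.

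The H2-DO chains moved apart. H2-Oa (chr17:34092379-34095234, plus strand), the alpha chain, had 84.7, 80.0 and 79.6 CPM in input, 36.1, 42.8 and 38.4 CPM with IgG and 22.5, 23.2 and 21.9 CPM with p-UPF1. Its log2 fold change was -0.79 ± 0.067 over IgG and -1.85 ± 0.064 over input (adjusted P = 1.09e-08 and 5.58e-14). H2-Ob (chr17:34238905-34245908, plus strand), the beta chain, had 250, 238 and 231 CPM in input, 215, 195 and 190 CPM with IgG and 314, 297 and 286 CPM with p-UPF1. Its p-UPF1 libraries lay above all others, with a log2 fold change of 0.58 ± 0.051 over IgG (adjusted P = 1.82e-08) and 0.32 ± 0.051 over input (adjusted P = 2.06e-05), well short of the bound criterion. The ratio of H2-Ob to H2-Oa counts was 2.94 ± 0.033 in input, 5.15 ± 0.715 with IgG and 13.3 ± 0.602 with p-UPF1 (SD, n = 3). The IgG libraries already differed from input in this ratio, lying between 4.55 and 5.94. On the strand opposite to H2-Oa, the gene BC051537 shares 200 exonic bases, 19.1% of those of H2-Oa, and held 324 counts over all libraries.

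Ciita (chr16:10480014-10531064, plus strand) was the only member that met the bound criterion, which 6.25% of all genes tested met. It had 335, 350 and 355 CPM in input, 279, 298 and 323 CPM with IgG and 2314, 2371 and 2437 CPM with p-UPF1. The p-UPF1 libraries stood apart from all others by a factor of several, with a log2 fold change of 2.98 ± 0.051 over IgG (7.91-fold, adjusted P = 1.6e-17) and 2.78 ± 0.050 over input (6.85-fold, adjusted P = 2.19e-17). Of all genes tested, 98.8% had a lower value over IgG and 98.6% a lower value over input. Leaving out any of the 9 libraries gave log2 fold changes of 2.93 to 3.04 over IgG and 2.74 to 2.81 over input. Dexi, on the opposite strand, shares 606 exonic bases with Ciita, 6.18% of its exon sum. It held 9879 counts over all libraries, against 52512 to 54934 counts of Ciita in each p-UPF1 library.

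Within a library the counts of the transactivator were set against those of its targets. The ratio of Ciita to Cd74 was 0.0580 ± 0.0014 in input, 0.110 ± 0.0074 with IgG and 2.58 ± 0.080 with p-UPF1 (SD, n = 3), and that of Ciita to H2-Ab1 was 0.202 ± 0.0074, 0.285 ± 0.022 and 7.60 ± 0.280. Ciita took 0.0341% ± 0.0010 of all counts in input, 0.0319% ± 0.0020 with IgG and 0.226% ± 0.0049 with p-UPF1. The 10 members together took 1.27% ± 0.0026, 0.788% ± 0.0078 and 0.473% ± 0.0065. In the p-UPF1 libraries Ciita exceeded Cd74, H2-Aa, H2-Ab1 and H2-Eb1 in counts, which it did in no control library.

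The control precipitate was not neutral for these genes. All 10 members were lower with IgG than in input, beside 34.7% of all genes tested, and 0 were higher, beside 18.2% of all genes. Their log2 fold changes ran from -1.13 (Cd74) and -1.06 ± 0.061 (H2-Oa) to -0.26 ± 0.052 (H2-Ob) and -0.21 ± 0.048 (Ciita), with a median of -0.64, beside -0.10 over all genes tested. The call of Ciita was lost with library size alone (-0.09, adjusted P = 0.0903), with an input library as the TMM reference (-0.10, adjusted P = 0.0954) and with only the groups compared in the fit (-0.10, adjusted P = 0.108). With mitochondrial scaling 6 of the 10 were lower, and Ciita and H2-Ob were above 0 at 0.14 (adjusted P = 0.127) and 0.083. The median of all genes tested was then 0.24, so the share of 34.7%, which belongs to the TMM scale, does not apply to this count. On the TMM scale, H2-Aa, H2-Ab1 and H2-DMa lay close together at -0.76, -0.70 and -0.69, and H2-Eb1 at -0.36.

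Of the members, 8 lie in the class II region of chromosome 17, between chr17:34092379 and chr17:34316674. The values over input are given in the order of position. H2-Oa comes first at -1.85. H2-DMa, H2-DMb2 and H2-DMb1 stand side by side with log2 fold changes over input of -1.98, -1.73 and -0.29. H2-Ob, at 0.32, precedes H2-Ab1, H2-Aa and H2-Eb1 at -2.45, -2.91 and -1.83, and H2-Eb2 follows them at 2.39. Brd2, a bromodomain gene between H2-Oa and H2-DMa, shares 332 exonic bases with H2-DMa on the opposite strand and had a log2 fold change over input of 2.37 ± 0.036 (adjusted P = 3.5e-18). Brd2 held 166829 counts over all libraries. How reads in these shared bases, 3.99% of the exonic bases of H2-DMa, were assigned is not given, and their part was not tested.

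**Figure D3:**
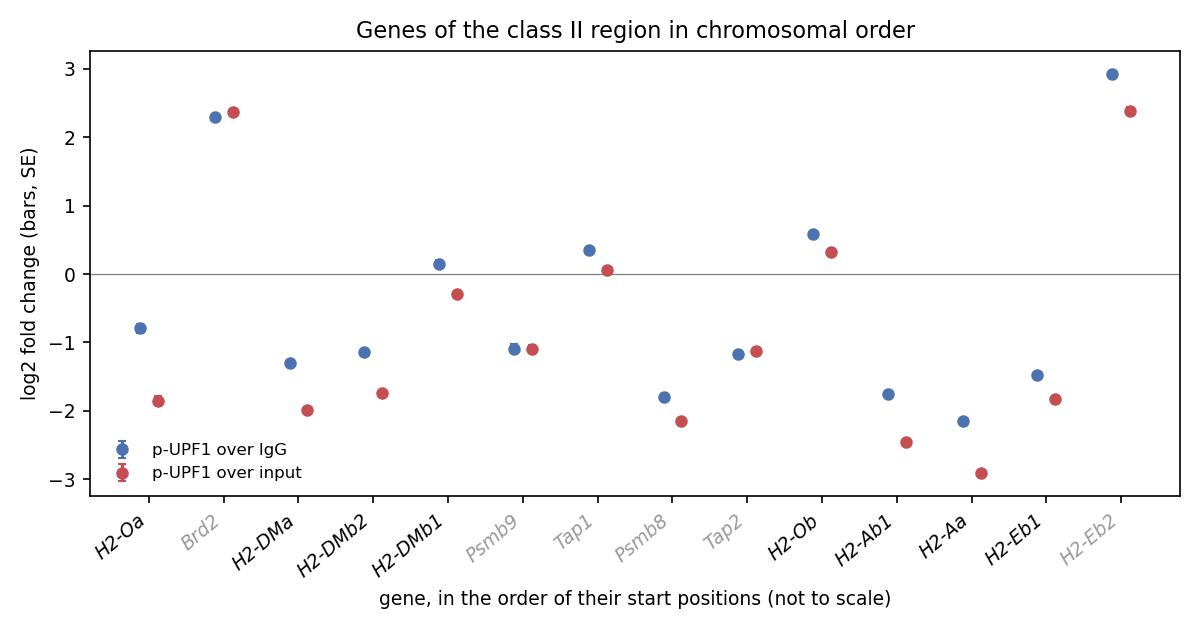
Log2 fold change of p-UPF1 over IgG (blue) and over input (red) for genes of the class II region in chromosomal order, with members in black and other genes in grey lettering, on the TMM scale. Bars are SE, mostly smaller than the points. H2-Eb2 stands at 2.39 over input beside H2-Eb1 at -1.83, while with mitochondrial scaling the members all lie above 0.

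The wider class II pathway was described by 22 further genes, of which 21 were tested. H2-Ea, a pseudogene here, had 0 to 4 counts a library. Of these genes, 5 were bound and 3 depleted, against the shares of 6.25% and 9.41% of all genes tested that met these criteria. These genes and the lists below were chosen with earlier results of these data known, so the counts are no measure of enrichment. Relative to IgG, 9 of the 21 were higher and 8 lower, beside 40.4% and 42.2% of all genes, and relative to input 8 were higher and 10 lower, beside 40.8% and 42.6%. With mitochondrial scaling 20 were bound and 0 depleted, as 12719 of all 13129 genes tested were then bound and 0 depleted.

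Among 7 genes of the transcription machinery on the X and Y boxes, 2 were bound, beside 6.25% of all genes tested. Nfya, the subunit of NF-Y that completes its DNA contact, had 121, 123 and 121 CPM in input, 144, 159 and 165 CPM with IgG and 1222, 1272 and 1281 CPM with p-UPF1. Its log2 fold change was 3.01 ± 0.049 over IgG and 3.37 ± 0.050 over input (adjusted P = 1.02e-17 and 2.63e-18), close to that of Ciita over IgG. Rfxank, a subunit of RFX, had 16.7 ± 1.45 CPM in input, 19.7 ± 1.40 CPM with IgG and 81.9 ± 1.23 CPM with p-UPF1, which gave 2.06 ± 0.067 and 2.29 ± 0.068 (adjusted P = 3.13e-14 and 7.19e-15). Nr2c2ap (1560 counts over all libraries) shares 974 exonic bases with Rfxank on the opposite strand, 26.45% of the exon sum of Rfxank. How reads in these shared bases were assigned is not given, and their part was not tested. Rfx5, the large RFX subunit, was higher by 0.69 ± 0.048 and 0.84 ± 0.048 without reaching the criterion (adjusted P = 6.75e-10 and 4.32e-11). Creb1, which encodes the CREB factor of the module, was the 1 gene of this list that was lower on the TMM scale, with values of -0.73 ± 0.071 over IgG and -0.19 ± 0.072 over input (adjusted P = 6.88e-08 and 0.0214). Over input its call was lost without input replicate B (adjusted P = 0.0572), p-UPF1 replicate A (0.0638) or p-UPF1 replicate B (0.0753), with DESeq2 size factors (0.0625), with the DESeq2 Wald test (0.0628) and with no low-count filter, where the value was -0.059 (0.326). The remaining subunits of RFX and NF-Y had log2 fold changes between -0.17 and 0.09 in these comparisons, with none past the threshold.

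The 3 genes of class II turnover were all higher in the p-UPF1 libraries on the TMM scale, as were 40.4% of all genes tested relative to IgG and 40.8% relative to input. Marchf1, the ubiquitin ligase that sends surface class II to degradation in B cells, had 25.1, 27.8 and 26.9 CPM in input, 19.6, 17.5 and 22.0 CPM with IgG and 127, 133 and 129 CPM with p-UPF1 (log2 fold change 2.72 ± 0.068 over IgG and 2.29 ± 0.065 over input, adjusted P = 1.2e-15 and 4.41e-15). Cd83, which opposes that ligase and stabilises class II at the surface, reached 15344, 15766 and 14914 CPM with p-UPF1, against 1053 to 1078 CPM in input and 1037 to 1088 CPM with IgG. Its log2 fold change was 3.86 ± 0.037 over IgG and 3.85 ± 0.037 over input (adjusted P = 3.12e-19 and 8.08e-20). Cd83 alone made up most of the 1.48% ± 0.043 of counts that these 3 genes took in the p-UPF1 libraries, beside 0.473% for the 10 members. Marchf8, a related ligase, missed the criterion by little at 1.98 ± 0.062 over input (1.60 ± 0.061 over IgG, adjusted P = 1.62e-14 and 2.46e-13). Of the 3 genes, 2 were thus bound (Marchf1 and Cd83), beside 6.25% of all genes tested.

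Among 10 genes of antigen and invariant chain processing, 0 were bound and 3 depleted, beside 6.25% and 9.41% of all genes tested, and 9 were lower than in input on the TMM scale, beside 42.6%. Ctss, the protease that makes the last cut in the invariant chain in B cells, had 320 ± 2.59 CPM in input, 277 ± 4.44 CPM with IgG and 64.0 ± 2.12 CPM with p-UPF1, with log2 fold changes of -2.11 ± 0.041 and -2.32 ± 0.041 (adjusted P = 6.14e-17 and 1.56e-17). Ifi30, the thiol reductase that opens disulfide bonds of antigens, followed with -1.66 ± 0.043 and -2.32 ± 0.043 (adjusted P = 1.81e-15 and 2.52e-17). Cst3, an inhibitor of cathepsins, had 49.8 ± 0.514 CPM in input, 24.4 ± 4.18 CPM with IgG and 5.67 ± 0.331 CPM with p-UPF1, with -2.10 ± 0.115 and -3.13 ± 0.108 (adjusted P = 3.07e-11 and 5.57e-14). Ctsd, an aspartic protease of lysosomes, was the gene of this list that was higher in both comparisons, by 1.002 ± 0.042 over IgG and 0.60 ± 0.041 over input (adjusted P = 8.15e-13 and 5.13e-10). The median log2 fold change of the list over input was -1.47, beside -2.45 for the 3 class II chains, -1.73 for the 5 DM and DO genes and -0.03 for all genes tested. On the mitochondrial scale the 3 depleted genes were instead above 0.

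**Figure D4:**
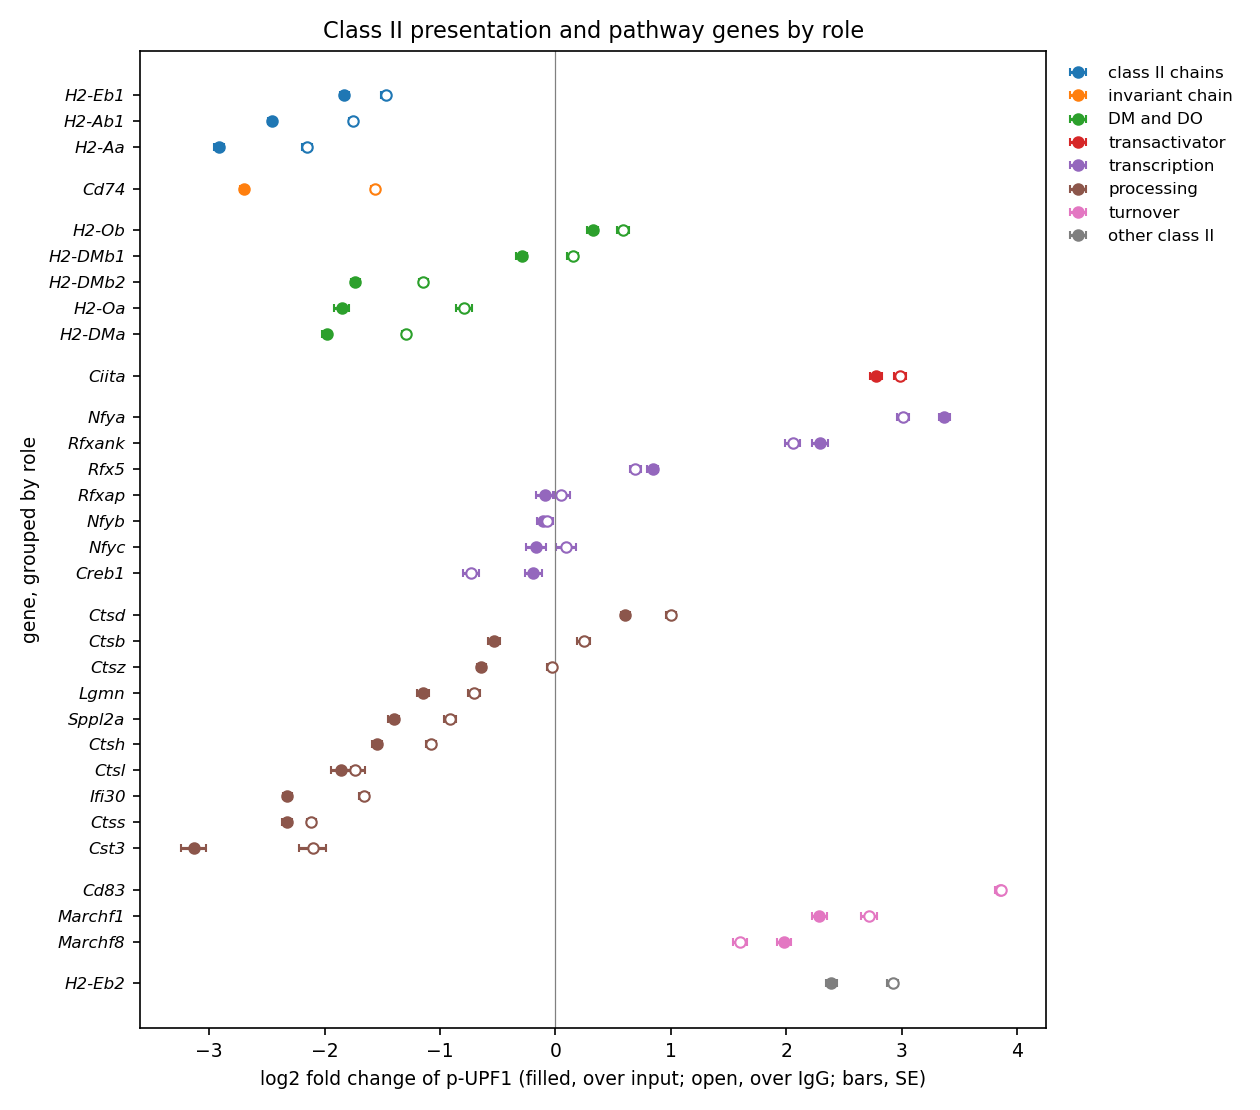
Log2 fold change of p-UPF1 over input (filled) and over IgG (open) for the 10 MHC class II presentation genes and 21 pathway genes, grouped by role, on the TMM scale. Bars are SE. Class II chains, Cd74 and most processing genes lie below 0 and Ciita, Nfya, Rfxank and the turnover genes above 0, whereas with mitochondrial scaling all 10 members lie above 0.

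H2-Eb2, a class II beta gene next to H2-Eb1 whose promoter stretch is printed above with that of H2-Eb1, had the opposite course. It had 122, 118 and 117 CPM in input, 77.3, 84.7 and 85.3 CPM with IgG and 620, 650 and 603 CPM with p-UPF1 (log2 fold change 2.92 ± 0.049 over IgG and 2.39 ± 0.047 over input, adjusted P = 1.23e-17 and 5.12e-17). Within a library, the ratio of H2-Eb2 to H2-Eb1 was 0.0725 ± 0.0016 in input, 0.0644 ± 0.0042 with IgG and 1.35 ± 0.031 with p-UPF1 (SD, n = 3). The genes are no near-identical copies, since 0 of the 50-base windows along the exons of H2-Eb2 occurred in H2-Eb1.

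Transcript structure was compared because long 3′ untranslated regions (3′UTRs) and exon junctions downstream of the stop codon are known features of NMD targets. The 3′UTR of the member transcripts (GENCODE M21, the transcript with the longest coding sequence) measured 300 bases for H2-Aa, 311 for H2-Ab1, 787 for H2-Eb1, 280 for H2-DMa, 291 for H2-DMb1, 458 for H2-DMb2, 228 for H2-Oa, 713 for H2-Ob, 484 for Cd74 and 684 for Ciita. The median was 385 bases, beside 952 over the 11866 genes tested that have a coding transcript, and 5 members fell into the lowest quartile of all genes and 5 into the second. In that lowest quartile (0 to 373 bases) 20.4% of all genes were depleted and 2.43% bound, with a median log2 fold change over input of -0.73. In the second (374 to 952 bases), which held H2-Eb1, H2-DMb2, H2-Ob, Cd74 and Ciita, 6.07% were depleted and 3.47% bound, with a median of -0.16. In the highest quartile (from 1985 bases) 2.36% were depleted and 10.1% bound, with a median of 0.42.

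The members with the 3 longest 3′UTRs took different courses, since H2-Eb1 was lower while H2-Ob and Ciita were higher than input. Bound genes had a median 3′UTR of 1655 bases and depleted genes of 258 bases, with Ciita at 684 bases between them. The place of Ciita depended on the transcript chosen. With the longest transcript of each gene instead, Ciita had 2676 bases, above the median of 1812 for bound genes and 286 for depleted genes, while H2-Ob had 1785 and H2-DMa 1862. By the longest transcript H2-Eb2 had 2501 bases and Nfya 2400. The coding length of Ciita was 3468 bases, against 753 to 912 for the other members. In the quartile of all genes with the shortest coding sequence (114 to 879 bases), which held 8 members, 22.6% of genes were depleted and 8.11% bound, and in the quartile with the longest (from 2244 bases), which held Ciita, 0.406% and 3.65%. H2-Eb1 was the only member with a transcript annotated as an NMD substrate, and Cd74 the only member with a coding transcript whose last junction lies over 50 bases after the stop codon. Such an NMD transcript was annotated for 29.4% of the genes tested that have a coding transcript, 26.9% of bound and 17.8% of depleted genes, and such a junction for 1.24%, 1.85% and 0.738%. Since counts are per gene, the data do not say which transcript was recovered.

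**Figure D5:**
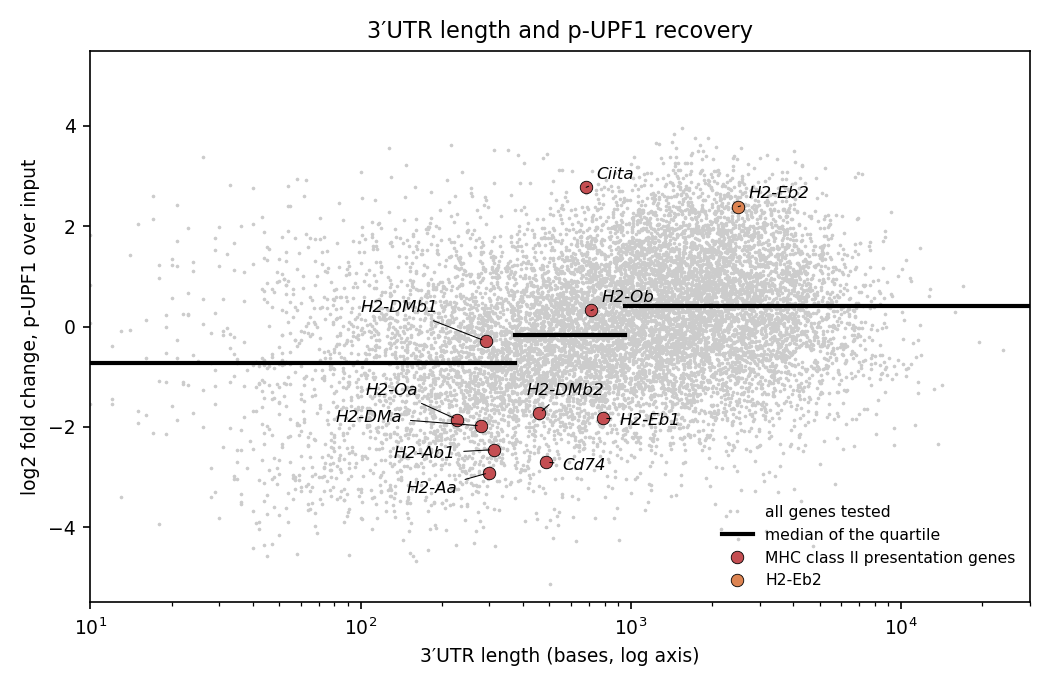
3′UTR length (log axis, bases) and log2 fold change of p-UPF1 over input for 11700 genes (grey), with the median of each quartile of 3′UTR length (black lines), the 10 MHC class II presentation genes (red) and H2-Eb2 (orange), on the TMM scale. Most members lie at short 3′UTRs below the median of their quartile, while Ciita lies above 0 at 684 bases; with mitochondrial scaling all members lie above 0.

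To place the patterns among all genes, the genes nearest to the mean profile of H2-Aa, H2-Ab1, H2-Eb1 and Cd74 were taken, by the distance of log2 CPM over the 9 libraries after each gene was centred on input, among 8937 genes with a symbol and a mean of at least 10 CPM. They were Mdh2, Eif3i, Swi5, Lsm2 and Psmc6, at distances of 0.110 to 0.217. Among the 4 genes themselves, H2-Ab1 lay 0.077 from their mean, H2-Aa 0.760, Cd74 0.793 and H2-Eb1 1.30. The other genes were picked for their closeness to this mean, so their distances are no measure of how alike the 4 are. Nearest to Ciita were Gpr107, Nfkbie, Rab43, Trub2 and Tk2, at 0.195 to 0.237. Nfkbie, which encodes an inhibitor of NF-kB, stood at 2.87 relative to IgG and 2.73 relative to input on the log2 fold scale, beside 2.98 and 2.78 for Ciita.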

How the data were processed

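Raw read counts per gene were used as deposited by the authors, with genes given by NCBI Gene ID. The submitters' processing notes name cutadapt, HISAT2, featureCounts and mm10, without versions. The library kit was directional, but the study's RNA-seq methods describe unstranded single-end alignment, and neither strand use nor the treatment of multi-mapping reads is given for RIP-seq. The methods name an anti-CD40 antibody where the labels name CD40L. Columns carry letters, so each was assigned to a group only.

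Genes were filtered with filterByExpr (minimum count 10, minimum total 15), which kept 13129 genes with 99.9% of counts. Counts were scaled by TMM and tested over all 9 libraries with edgeR 4.0.16 (glmQLFit and glmQLFTest, two-sided, prior count 0.125, 6 residual degrees of freedom, R 4.3.3), with Benjamini-Hochberg adjustment over all genes tested. SEs were derived from the test statistic. limma 3.58.1 and DESeq2 1.42.0 served as alternatives, beside other scalings, filters and left-out libraries. The fit was tested on simulated data in which few genes changed, so this test did not bear on the choice of scaling. Positions and exon sums are from RefSeq on GRCm38 and transcript lengths from GENCODE M21. Symbols and promoter windows were matched by Gene ID and symbol. Members and lists were chosen with earlier results of these data known. All members were named, and pathway genes that were bound, depleted or had a role described. The genes nearest in pattern were the 5 at the smallest distance. Duplicate reads were not marked by molecular identifiers.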

Additional observations from a re-analysis of the deposited data

How the results depend on the processing

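The planned block by the labels' replicate number could not be fitted, since the count columns are lettered. A replicate block by column letter, chosen after seeing the data, gave 822 bound genes in all, 10 members lower in IgG than in input, and no lost or reversed call among members or named pathway genes. Libraries of the same letter hardly deviated together (r = -0.0051 to 0.0542 across genes), with the best match at the same letter for A and B and at another letter for C. In the paper, input was a part of the lysate and the rest went to the antibodies, so libraries may be paired. As no correlation passed 0.1, the letters were not taken to pair the samples, though small correlations cannot exclude pairing. Of 696 fold changes of members under the alternatives, 652 kept direction and side of the threshold, 25 fell short of it and 19 reversed, and of 552 for the named pathway genes 530, 14 and 8. Scaling to equal mitochondrial mRNA counts gave 10 bound and 0 depleted members, 10 higher and 0 lower over IgG and over input, and 6 lower in IgG than in input. In IgG over input the median log2 fold change of all genes tested was then 0.24. It gave 20 bound and 0 depleted pathway genes, and 12719 bound and 0 depleted genes in all, in place of 820 and 1236. On this scale the log2 fold changes over IgG and over input were 2.54 and 2.13 for H2-Aa, 2.94 and 2.58 for H2-Ab1, 3.22 and 3.21 for H2-Eb1, 3.13 and 2.34 for Cd74, 3.40 and 3.06 for H2-DMa, 3.55 and 3.31 for H2-DMb2, 3.90 and 3.19 for H2-Oa, 2.58 and 2.71 for Ctss, 3.04 and 2.72 for Ifi30, 3.96 and 4.85 for Creb1 and 2.59 and 1.90 for Cst3. H2-DMb1 stood at 4.75 over input, and Ciita and H2-Ob at 0.14 and 0.083 in IgG over input. H2-DMb1 over IgG was -0.010 with library size alone and -0.75 when summed with H2-DMb2. By its construction the mitochondrial scale moves all genes together. A test against the fold minimum (glmTreat) left Ciita bound and H2-Aa, H2-Ab1 and Cd74 depleted, beside 541 bound and 871 depleted genes in all. By direction it left 1 member higher over IgG and 1 over input, 3 lower over input and 1 lower in IgG than in input. The shares of all genes by direction under this test are not given here, so these counts cannot be set against them. Depleted members were 4 with library size alone, under upper-quartile scaling and without p-UPF1 replicate B, each time with H2-DMa added. Depleted genes in all were 1304, 1325 and 1260 under these settings, in place of 1236. Without each library in turn, the bound members stayed at 1, the depleted at 3 to 4, bound pathway genes at 5 to 6, bound genes in all at 825 to 860 and depleted genes in all at 1218 to 1275. With 3 libraries a group, spread is known only roughly, and counting error is small at 483 counts or more per member and library.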
